A study of Rattus norvegicus with 3 samples.

Results

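The creatine kinase and creatine synthesis genes of rat kidney inner medulla were described in animals given lithium for 1 month and in control animals. The 6 genes were Ckmt1, Ckmt2, Ckb, Ckm, Gatm and Gamt, taken as the probes whose annotation held that single symbol. Each had 1 probe on the array, so the set was 6 of 4390 named genes. The set was chosen by the ratio of Ckmt1 on these same arrays, which was known to be high, together with the genes of its pathway, so the ratios below are a description and lend no support to the choice. There were 3 dual-colour spotted arrays, each of which paired red-labelled RNA of lithium-treated rats with green-labelled RNA of controls. Pools of 2 treated and 2 control rats were used on array 1 and again, from other animals, on array 2, whereas array 3 compared 1 treated rat with 1 control. The sources used here do not give strain, age, sex, lithium dose or how the controls were kept. The series is titled for the nephrogenic diabetes insipidus that lithium is known to cause, a loss of the kidney's ability to concentrate urine under vasopressin.

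Creatine kinases move a phosphate group between ATP and creatine, so that phosphocreatine can buffer and carry energy within a cell. Ckmt1 is the ubiquitous mitochondrial enzyme and Ckmt2 the sarcomeric mitochondrial one, both lying between the mitochondrial membranes. Ckb is the cytosolic brain-type subunit, also made in kidney, and Ckm the cytosolic muscle-type subunit. Gatm makes guanidinoacetate from arginine and glycine and is known from the proximal tubule. Gamt methylates guanidinoacetate to creatine, and Slc6a8, described beside the set, carries creatine into cells.

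The regions before the starts of the 4 kinase genes are shown because these genes encode enzymes of the same reaction and had different ratios. Each run is the 250 bases before the start in the RefSeq promoter table (assembly GRCr8), read 5′ to 3′ on the gene's strand. Capitals mark matches on either strand to the TATA box letters TATAAA, the GC box letters GGGCGG, the CAAT box letters CCAAT or the E-box letters CANNTG.
Ckmt1, chr3:128784232-128784481, plus strand: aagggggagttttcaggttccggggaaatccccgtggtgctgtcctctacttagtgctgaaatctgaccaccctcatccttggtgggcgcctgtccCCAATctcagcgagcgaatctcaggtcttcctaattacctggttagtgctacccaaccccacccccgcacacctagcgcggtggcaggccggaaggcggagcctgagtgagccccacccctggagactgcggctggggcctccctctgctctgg
Ckmt2, chr2:24845512-24845761, minus strand: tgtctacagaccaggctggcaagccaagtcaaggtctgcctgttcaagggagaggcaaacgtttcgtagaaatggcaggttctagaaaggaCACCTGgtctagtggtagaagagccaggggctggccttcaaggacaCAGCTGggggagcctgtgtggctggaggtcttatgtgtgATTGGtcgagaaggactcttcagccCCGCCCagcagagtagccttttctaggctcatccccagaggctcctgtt
Ckb, chr6:136553465-136553714, minus strand: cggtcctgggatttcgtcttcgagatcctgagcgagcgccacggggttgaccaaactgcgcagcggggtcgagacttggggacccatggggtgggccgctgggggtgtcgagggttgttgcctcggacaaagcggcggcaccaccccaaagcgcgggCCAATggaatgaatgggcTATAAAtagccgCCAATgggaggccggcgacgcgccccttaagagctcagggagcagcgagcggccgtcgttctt
Ckm, chr1:88189211-88189460, plus strand: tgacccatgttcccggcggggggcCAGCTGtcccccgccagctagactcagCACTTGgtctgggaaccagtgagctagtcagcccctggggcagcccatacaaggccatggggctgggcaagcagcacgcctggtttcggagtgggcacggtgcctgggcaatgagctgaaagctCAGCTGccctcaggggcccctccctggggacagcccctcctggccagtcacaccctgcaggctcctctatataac
The Ckmt1 window held 1 match, a CAAT box beginning 154 bases before the start. The Ckmt2 window held E-boxes at 159 and 113 bases, a CAAT box on the opposite strand at 74 bases and a GC box on the opposite strand at 49 bases. The Ckb window held a TATA box at 75 bases and CAAT boxes at 93 and 63 bases. The Ckm window held E-boxes at 226, 199 and 75 bases. An E-box pattern reads the same on both strands, and none of these matches overlapped another. Of all 33469 such windows, 12.9% held the TATA box letters, 30.5% the GC box letters, 34.0% the CAAT box letters and 65.5% the E-box letters. Ckb had 25 CG dinucleotides in its window, against 11 in Ckmt1, 6 in Ckm and 4 in Ckmt2. The arrays measured RNA ratios and hold no measurement at these regions.

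Each probe's value was deposited as a log ratio with no stated base, so folds are given as they would be for base 10 and for base 2. Values of 0 mark the median of all probes of an array. A ratio above 0 was read as higher with lithium, which is likely because lithium RNA was channel 1, though the direction was not written in the table. Aqp2, the vasopressin-regulated water channel that lithium is known to lower, stood at 0.17 ± 0.08 (SD, n = 3), which leaves doubt about that reading. It is named for this reason alone, here and among the principal cell markers below. Values were present for 5582 of the 5760 probes on array 1, for 5682 on array 2 and for 4287 on array 3. Spot intensities were not used here, so neither the level of any gene nor the inner medulla's marker genes could be checked as levels, and the number of arrays limits the precision. Across the 3819 features measured on all 3 arrays, Pearson's r between arrays was 0.465 for 1 and 2, 0.481 for 1 and 3 and 0.157 for 2 and 3, over genes that are not independent replicates. No array had the dyes swapped, so dye and treatment cannot be told apart. In whole tissue, more cells of a type and more RNA per cell cannot be told apart either.

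Ckmt1, the ubiquitous mitochondrial kinase, was the member with ratios far above 0. Its log ratio was 0.41 on array 1, 0.46 on array 2 and 0.23 on array 3. All 3 values lay above every value of the other 5 members and of Slc6a8, with the single-rat array the lowest. The mean was 0.37 ± 0.12 (SD, n = 3), a ratio of 2.33 if the base is 10 and of 1.29 if it is 2. If the table's ratios ran the other way, these would be 0.43 and 0.776, and every direction given here would turn. By its mean it was number 6 from the top of the 3819 features, and 0.105%, 0.0786% and 1.6% of them lay higher on arrays 1, 2 and 3.

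Ckmt2, the sarcomeric mitochondrial kinase, stayed near 0. It read −0.03, 0.08 and −0.10 on arrays 1, 2 and 3, so its sign differed between arrays. The mean was −0.02 ± 0.09 (SD, n = 3), a ratio of 0.962 if the base is 10 and of 0.989 if it is 2, and its limma adjusted p was 0.893. This mean turned to 0.02 with each printed block centred on its own median and to 0.03 without array 3. Within each array the ratio of Ckmt1 exceeded that of Ckmt2, by 0.44, 0.38 and 0.33 in log ratio. That difference averaged 0.38 ± 0.06 (SD, n = 3) and does not depend on how an array is centred as a whole. It gives a ratio of 2.42 if the base is 10 and of 1.30 if it is 2.

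The cytosolic kinases had ratios below 0 by a smaller amount. Ckb, the brain-type subunit, read −0.12, −0.01 and −0.16 on arrays 1, 2 and 3. All 3 values were below 0, the one on array 2 only just. Its mean of −0.10 ± 0.08 (SD, n = 3) gives a ratio of 0.80 if the base is 10 and of 0.935 if it is 2, with a limma adjusted p of 0.325. Ckm, the muscle-type subunit, read −0.13, 0.04 and −0.21, low on arrays 1 and 3 and above 0 on array 2. Its mean was −0.10 ± 0.13 (SD, n = 3), with a limma adjusted p of 0.388. Ckb and Ckm differed by 0.0033 ± 0.05 in mean log ratio, with the sign changing between arrays. Both were past the threshold with array weights (adjusted p = 0.0161 and 0.0182), a fit that gave array 1 a weight of 4.52 against 0.371 and 0.596 for arrays 2 and 3 and called 27.6% of all features.

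**Figure D1:**
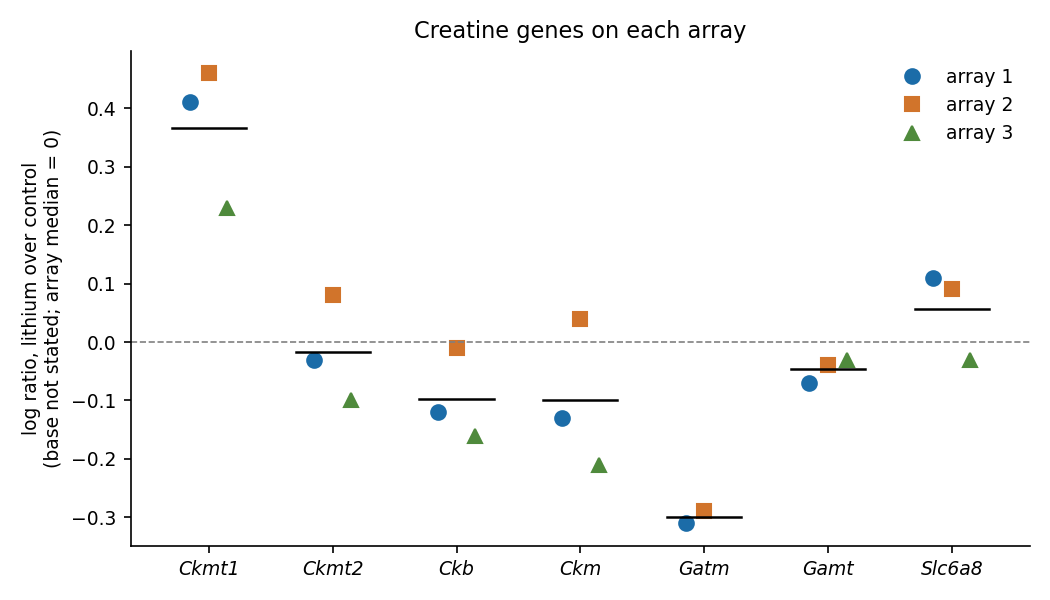
Log ratio of each creatine gene on arrays 1 (circles), 2 (squares) and 3 (triangles), with the mean as a bar; the y axis is the log ratio of lithium over control, base not stated, with each array's median at 0. Ckmt1 lies at 0.23 to 0.46, above all other points, and Gatm, with no value on array 3, lies at −0.31 and −0.29.

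Ckmt1, Ckmt2, Ckb and Ckm shared an order over the arrays, each highest on array 2 and lowest on array 3. The medians of all features tested had that order too, at 0.01, 0.04 and 0.00 on arrays 1, 2 and 3. Ckmt2 exceeded Ckb by 0.09, 0.09 and 0.06 on arrays 1, 2 and 3. The mean of 0.08 ± 0.02 (SD, n = 3) was steadier than either ratio with arrays centred as a whole. The probes were printed in 32 blocks of 180 spots, and the median of a block moved between arrays too. The block of Ckmt2 had medians of −0.05, 0.04 and −0.09, close to the 3 values of Ckmt2 itself, and the block of Ckm had −0.05, 0.05 and −0.07. The block of Ckb was flat, at 0.01, −0.01 and 0.01. With blocks centred, Ckmt2 read 0.02, 0.04 and −0.01, a mean of 0.02 ± 0.03, while Ckm read −0.08, −0.01 and −0.14, a mean of −0.08 ± 0.07. Ckb then read −0.13, 0.00 and −0.17, a mean of −0.10 ± 0.09, so its distance from Ckmt2 was no longer steady. Ckmt1 read 0.45, 0.41 and 0.28 on that scale, a mean of 0.38 ± 0.09, so its ratio was as large within its block.

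**Figure D2:**
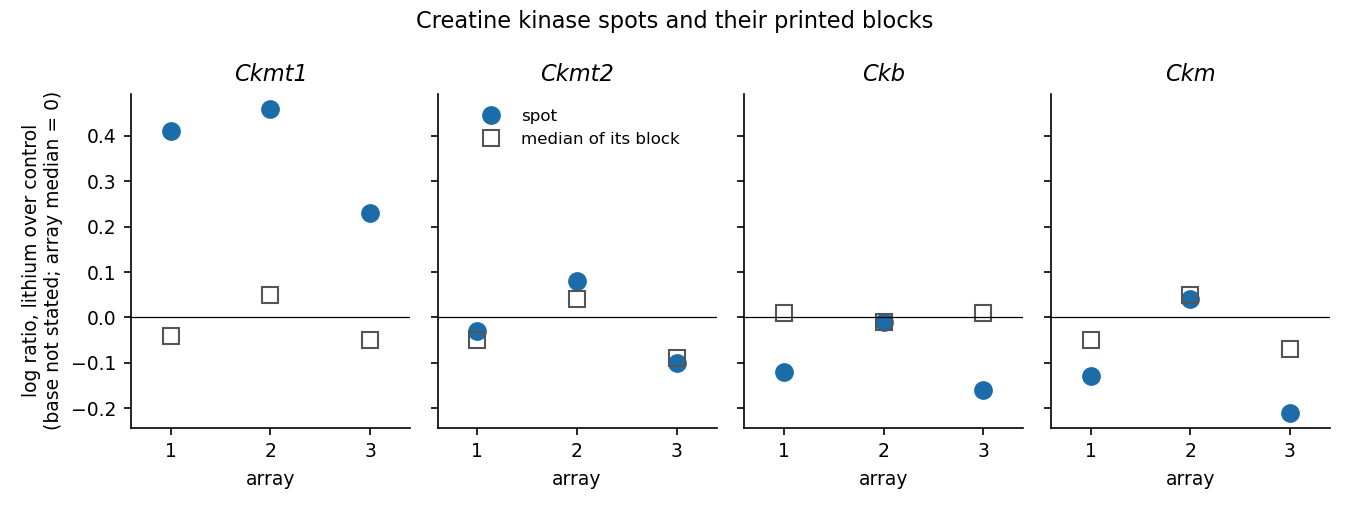
Log ratio of each creatine kinase spot (filled circles) and the median of the 180 spots of its printed block (open squares) on arrays 1, 2 and 3; the y axis is the log ratio of lithium over control, base not stated, with each array's median at 0. Ckmt2 stays within 0.04 of its block's median, whereas Ckmt1 lies at least 0.28 above its own.

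The enzymes of creatine synthesis both had ratios below 0. Gatm, which catalyses the first step, read −0.31 on array 1 and −0.29 on array 2 and had no value on array 3. Its mean of −0.30 ± 0.01 (SD, n = 2) gives a ratio of 0.501 if the base is 10 and of 0.812 if it is 2. It could not enter the fit over all 3 arrays. With features measured on at least 2 arrays its limma adjusted p was 0.0882, and in the fit without array 3 it was 0.275. Probes empty on array 3 read low as a group, with medians of −0.08 on array 1 and −0.18 on array 2. Of those probes, 11.9% lay below Gatm on array 1 and 31.8% on array 2, and of all probes 3.19% and 10.2%. What the emptiness of a spot contributes to this ratio was not tested.

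Gamt, which catalyses the second step, read −0.07, −0.04 and −0.03 on arrays 1, 2 and 3, all 3 just below 0. Its mean of −0.05 ± 0.02 (SD, n = 3) gives a ratio of 0.898 if the base is 10 and of 0.968 if it is 2, with a limma adjusted p of 0.571. Gatm lay below Gamt by 0.24 and 0.25 on the 2 arrays that measured both. The creatine transporter gene Slc6a8 read 0.11, 0.09 and −0.03, above 0 on both pooled arrays and below it on the single-rat array. Its mean was 0.06 ± 0.08 (SD, n = 3, limma adjusted p = 0.554), and it was past the threshold with array weights (adjusted p = 0.0435).

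In order of mean log ratio the genes ran Ckmt1, Slc6a8, Ckmt2, Gamt, Ckb, Ckm and Gatm. Slc6a8 exceeded Ckmt2 on every array, by 0.14, 0.01 and 0.07. Ckmt2 and Gamt differed by 0.03 ± 0.10 (SD, n = 3) and Gamt and Ckb by 0.05 ± 0.08, in both cases less than the spread. Ckmt1 exceeded Slc6a8, the next in order, by 0.31 ± 0.06 (SD, n = 3).

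**Figure D3:**
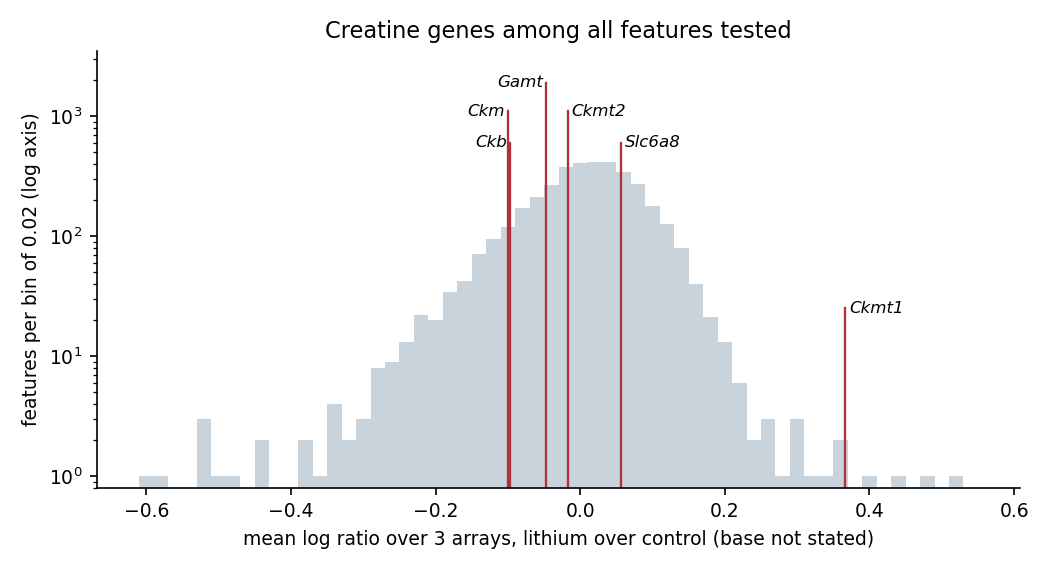
Histogram of the mean log ratio over 3 arrays for all 3819 features tested, in bins of 0.02 with a log axis for the number of features; lines mark the creatine genes measured on all 3 arrays. Ckmt1, at 0.37, lies in the thin upper tail, and the other genes lie between −0.10 and 0.06.

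Across the whole table, limma called 17 of 3819 features (0.445%) at an adjusted p of 0.05, of which 9 were higher (0.236%) and 8 lower (0.209%). With arrays scaled to the same spread 35 were higher and 63 lower, and without centring 8 and 10. Of the 5 members measured on all 3 arrays, 1 was called, Ckmt1, with an adjusted p of 0.0476, and nothing is read from that count because this comparison was known when the set was chosen. The place of Ckmt1 just inside the threshold depended on small choices. Its adjusted p was 0.0501 with genes merged by symbol, an alternative chosen after seeing the data, 0.0502 with single probes, and 0.0548 with arrays centred on the features of all 3 arrays. Without array 1, 2 or 3 its mean was 0.35, 0.32 and 0.44 and its adjusted p 0.743, 0.297 and 0.254. With 3 arrays the smallest two-sided p of an exact sign-flip test of a single gene is 0.25. Above 0 on every array were 24.1% of features and 1 of the 5 members, and below 0 on every array were 14.6% of features and 2 of the 5, Ckb and Gamt.

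The genes with ratios most like those of Ckmt1 were a lysosomal protease, a keratin, 2 metabolic enzymes and a membrane glycoprotein. Likeness was the Euclidean distance over the 3 array values, among named genes outside the set. Ctsd, cathepsin D, was nearest at a distance of 0.117, with 0.33, 0.40 and 0.29 on arrays 1, 2 and 3. Krt19, a keratin of simple epithelia, followed at 0.151 with 0.44, 0.59 and 0.30. Aldh1a1, a retinaldehyde dehydrogenase, lay at 0.171 with 0.33, 0.31 and 0.25. In these 3 genes, as in Ckmt1, array 3 held the lowest value. Gls2, a glutaminase of mitochondria, lay at 0.192 with 0.25, 0.39 and 0.31. Prom1, a glycoprotein of membrane protrusions, lay at 0.194 with 0.37, 0.40 and 0.41. These 5 are genes that share a high ratio on 3 arrays, and the distance says no more than that.

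Genes of the pathways that make or use the precursors of creatine did not pass the test with all 3 arrays weighted equally. Of the arginine and ornithine genes, 17 of 18 on the array were measured on all 3 arrays, and 0 of 17 were called. Of these 9 lay above 0 and 8 below, with a median of 0.03, beside 55.7% above 0 and a median of 0.01 over all features. Arg2, the mitochondrial arginase, had the highest mean at 0.14 ± 0.10 (SD, n = 3), and Nos1, a nitric oxide synthase, the lowest at −0.10 ± 0.05. Of 4 glycine and serine genes 3 lay above 0, between Gcsh of the glycine cleavage system at −0.10 ± 0.06 and Sds, serine dehydratase, at 0.06 ± 0.06. Of 10 genes of the methionine cycle and of S-adenosylmethionine use 3 lay above 0 and 7 below, with a median of −0.03. They ran from the arginine methyltransferase Prmt3 at −0.13 ± 0.02 to the histamine methyltransferase Hnmt at 0.11 ± 0.05, and 6 more genes of this list had values on arrays 1 and 2 only. The smallest limma adjusted p among the 31 genes of these 3 lists was 0.18, and 5 of the 31 (16.1%) had an unadjusted p under 0.05, against 17.2% of all features. With array weights 11 of the 31 were called (35.5%), against 27.6% of all features, and these included Arg2, Nos1, Gcsh, Hnmt and Prmt3.

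Other genes of energy transfer did not pass that test either. Among 7 further nucleotide phosphotransfer genes 5 lay above 0, with a median of 0.04. Nme7, of the nucleoside diphosphate kinase family, stood at 0.15 ± 0.09 (SD, n = 3) and Nme6 at −0.17 ± 0.27, with array 2 at −0.45 and array 3 at 0.08. Of 10 genes of exchange across the mitochondrial membranes, where Ckmt1 sits, 6 lay above 0, with a median of 0.03. They ran from the outer-membrane channel Vdac2 at −0.10 ± 0.10 to the hexokinase Hk2 at 0.10 ± 0.04, well below the mean of Ckmt1. Of 12 tricarboxylic acid cycle genes 7 had means above 0, 4 below and 1 at 0, and the median was 0.03. Dlst, a subunit of the oxoglutarate dehydrogenase complex, stood at 0.12 ± 0.02 and Pc, pyruvate carboxylase, at −0.12 ± 0.08.

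Among genes of ion pumps, which use ATP, 7 of 15 lay above 0, with a median of −0.0011. Atp6ap1, an accessory subunit of the proton pump, was highest at 0.15 ± 0.11 (SD, n = 3) and Fxyd2, a regulator of the sodium pump, lowest at −0.17 ± 0.13. Of 8 genes of AMP-activated kinase and its partners 4 lay above 0, from Prkab2 at −0.05 ± 0.05 to Prkab1 at 0.18 ± 0.07, both regulatory subunits. None of the 52 genes in these 5 lists was called by limma, with adjusted p from 0.14 upward, against 0.445% called of all features. An unadjusted p under 0.05 was found for 12 of the 52 (23.1%), against 17.2% of all features. Of these 12, 7 were among the 15 ion pump genes (46.7%). With array weights 19 of the 52 were called (36.5%), against 27.6%, and these included 8 of the 15 ion pump genes (53.3%).

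**Figure D4:**
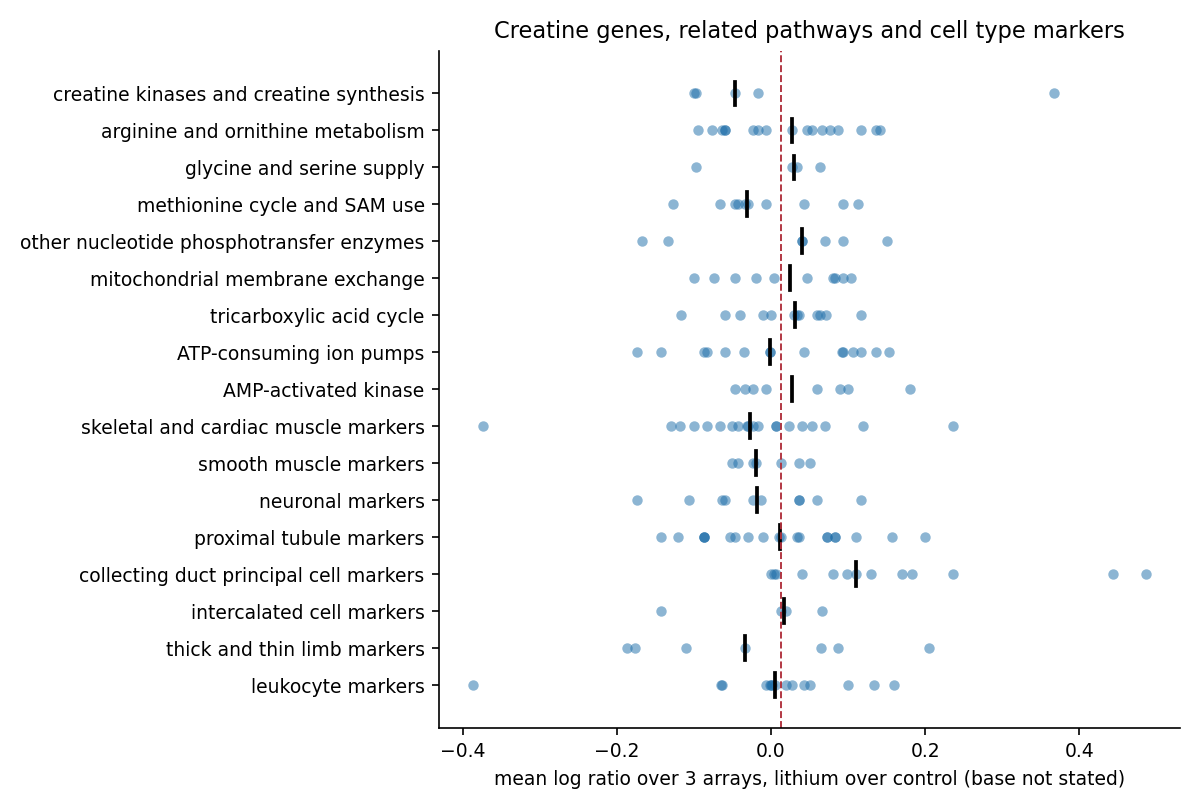
Mean log ratio over 3 arrays (x axis, base not stated) of each gene measured on all 3 arrays, by gene list (rows), with the list's median as a black bar and the median of all features, 0.01, as a dashed line. Ckmt1, at 0.37, stands apart in the top row, and in the row of principal cell markers no gene lies below 0 with arrays centred on their medians.

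Markers of kidney and other cell types were measured on the same arrays. Of 13 markers of the collecting duct principal cell, 12 lay above 0 and 1 at 0, with a median of 0.11, and 10 lay above 0 and 3 below without centring. Aqp2, the gene that left doubt about the direction of the ratios, was among the 12. Hsd11b2, the enzyme that inactivates glucocorticoids, had a mean of 0.49 ± 0.10 (SD, n = 3) and Krt19 one of 0.44 ± 0.15, with limma adjusted p of 0.0234 and 0.0443, both calls lost without array 1, 2 or 3. Krt18, another keratin, was lowest at 0.00 ± 0.10. Of the 13 markers 10 lay above 0 on every array, beside 24.1% of all features, and Aqp3, Krt8 and Krt18, named because they did not, had at least 1 array at or below 0. The part of these markers in the ratio of Ckmt1 was not tested. Of 4 intercalated cell markers 3 lay above 0, from the proton pump gene Atp12a at −0.14 ± 0.05 to the water channel Aqp6 at 0.07 ± 0.20.

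No marker of muscle, where Ckm and Ckmt2 are known to be abundant, was called in the main limma fit. Of 20 skeletal and cardiac muscle markers with values on all 3 arrays, 8 lay above 0 and 12 below, with a median of −0.03. They ran from the troponin gene Tnnt2 at −0.37 ± 0.44 (SD, n = 3) to the myosin gene Myh2 at 0.24 ± 0.12. Tnnt2 read −0.54, −0.71 and 0.13 on arrays 1, 2 and 3, so its mean hides a change of sign. Myh2 was called with arrays scaled to the same spread (adjusted p = 0.0422), a robust prior (0.0304) and array weights (0.00402), and Tnnt2 with array weights (0.00513). A further 9 muscle markers had values on arrays 1 and 2 only, and 8 of these lay below 0 on both. They read −0.60 to 0.05 on array 1 and −0.78 to −0.09 on array 2, the lowest being the myoglobin gene Mb, and the median over all 29 was −0.05. Probes empty on array 3 read low as a group, with medians of −0.08 on array 1 and −0.18 on array 2. The count of 8 is therefore not read as a trait of muscle markers. In the fit of features with at least 2 values, Mb and the acetylcholine receptor gene Chrna1, both named after their values were seen, were called lower, as were 0.73% of the 4930 features in it. Of 7 smooth muscle markers 3 lay above 0, between Tagln at −0.05 ± 0.16 and Actg2 at 0.05 ± 0.10. Of 10 neuronal markers 4 lay above 0, between Map2 at −0.17 ± 0.05 and Uchl1 at 0.12 ± 0.08.

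Of 20 markers of the proximal tubule, known for Gatm, 11 lay above 0, with a median of 0.01. Spot intensities were not used, so whether these inner medulla samples held proximal tubule cells was not checked. The organic anion transporter genes Slc22a6 and Slc22a8 were highest and lowest of the 20, at 0.20 ± 0.04 and −0.14 ± 0.08 (SD, n = 3). Slc22a6 was called with arrays scaled to the same spread (limma adjusted p = 0.0366) and with a robust prior (0.0347). With array weights both genes were called. A further 4 proximal tubule markers lacked a value on array 3, as Gatm did. They read −0.29 to 0.00 on array 1 and −0.36 to −0.14 on array 2. All probes empty on array 3 had medians of −0.08 on array 1 and −0.18 on array 2. Of 7 limb markers 3 lay above 0, from the water channel Aqp1 at −0.19 ± 0.08 to the potassium channel Kcnj1 at 0.20 ± 0.12. Of 15 leukocyte markers 9 lay above 0, from the integrin Itgam at −0.39 ± 0.29 to Cd4 at 0.16 ± 0.03. Itgam was called with arrays scaled to the same spread (limma adjusted p = 0.0375), and Itgam and Cd4 with array weights. Of 2 red cell markers on the array, the haemoglobin gene Hba-a1 stood at 0.15 ± 0.06. The other, Alas2, read −0.06 and −0.24 on arrays 1 and 2 and had no value on array 3. Among the 97 genes of all marker lists the main limma fit called Hsd11b2 and Krt19 alone, which is 2.06% against 0.445% of all features. An unadjusted p under 0.05 was found for 28 of the 97 (28.9%), against 17.2% of all features. These included 8 of the 13 principal cell markers (61.5%) and 4 of the 7 limb markers (57.1%).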

How the data were processed

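The deposited table held log ratios with 2 decimals for 5760 probes on 3 arrays, and the labels describe lithium RNA as channel 1 and control RNA as channel 2. Scanner, background correction, normalization, spot filter and log base are not given in the sources used here. Probes were named from the platform's public annotation: 5064 had 1 symbol, 9 had several and 687 had no entry. A RefSeq table of assembly GRCr8 held the gene IDs of 5043, and genes were kept apart by gene ID. Each array's median was subtracted, probes of 1 gene were averaged, and the 3819 features measured on all 3 arrays (3395 named genes) entered an intercept-only limma fit (version 3.58.1, R 4.3.3) with eBayes. Its two-sided p-values were adjusted by Benjamini-Hochberg and called at 0.05. With an array left out, features measured on the remaining arrays were tested. The fit was also run on simulated data, with variances drawn from its own prior and the same spread on every array. The real arrays differed in spread, so that run is no check of the calls given here.

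The members and all gene lists were chosen with earlier results of these data known. Named genes were the members and Slc6a8, the highest, lowest and called genes of each list, and the 5 nearest to Ckmt1. Aqp2, Aqp3, Krt8, Mb, Chrna1 and Alas2 were added outside this rule. No list test was run. Promoter sequences came from RefSeq's GRCr8 table, in which all 4 kinase genes were found. Tables were made with pandas 2.3.3 and numpy 2.4.6 under Python 3.11.15 and figures with matplotlib 3.10.9. Alternatives are listed with their effects in the closing section.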

Additional observations from a re-analysis of the deposited data

How the results depend on the processing

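Over 14 alternatives the mean log ratio of Ckmt1 ran from 0.32 to 0.44 and stayed above 0. It passed in 6 of them, and its adjusted p over all 14 ran from 0.000365 to 0.743. Among the 6 was the threshold of 0.10, which the adjusted p of 0.0476 from the main fit was bound to pass. It was lost with arrays centred on the features of all 3 arrays (mean 0.35), and with values on at least 2 arrays, single probes, genes merged by symbol or no variance prior (mean 0.37 each, adjusted p = 0.0622, 0.0502, 0.0501 and 0.408), where 0 members passed. Without replicate 1, 2 or 3 its mean ran from 0.32 to 0.435 and 0 members passed. With array weights 3 members passed, Ckb at −0.12 and Ckm at −0.13 besides Ckmt1. Ckb, Ckm and Gamt lay below 0 in all 14, and Ckmt2 in 12. Not all 14 were checks of sign. Values on at least 2 arrays, single probes, merging by symbol, either change of prior and the looser threshold left these means unchanged. The same holds for the mean of Ckmt1, so those settings could not turn a sign.

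The number of features called moved from 17 (9 higher, 8 lower) to 98 (35 and 63) with arrays scaled to the same spread, 40 (4 and 36) with values on at least 2 arrays, 1055 (582 and 473) with array weights, 94 (35 and 59) with a robust prior, 49 (20 and 29) at an adjusted p of 0.10 and 0 (0 and 0) with no prior, where 442 had an unadjusted p under 0.05. Leaving out replicate 1, 2 or 3 left 0 features called by limma, with 174, 606 and 734 at an unadjusted p under 0.05. The cause of these moves was not tested. Features above and below 0 numbered 2127 and 1631, and 1726 and 2031 without centring, so counts about 0 move with the centring. Of 546 values of the other named genes, 30 gained a call and 27 lost one, most gains coming with array weights. Marker genes called went from 2 of 97 to 6 with arrays scaled to the same spread, 5 with a robust prior and 31 with array weights. Calls over all 3819 features rose in the same settings, from 17 (0.445%) to 98, 94 and 1055 (27.6%). The rise is therefore not read as a trait of marker genes. Of 176 medians of gene lists under the alternatives, 131 moved by less than the spread between arrays. No paired analysis was possible because there is 1 group, each array being itself a direct comparison of lithium with control.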

Other observations

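The spots printed next to Ckmt1 did not share its ratio. Reading the probe identifiers as block, row and column, which the files do not state, the spots on either side in its row had log ratios of 0.09, 0.14 and −0.02, and −0.02, 0.02 and −0.19, on arrays 1, 2 and 3. The spot above had −0.05, 0.18 and −0.24. The spot below had −0.23 and −0.44 on arrays 1 and 2 and no value on array 3. All of these lay below the 0.41, 0.46 and 0.23 of Ckmt1 on the same array.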
